A study of Mus musculus with 2 samples.

Results

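The genes described here are 5 genes of the gastric chief cell: Pgc, Pga5, Lipf and Chia1, which encode secreted digestive enzymes, and Bhlha15, which encodes a transcription factor of secretory cells. They were named as a list and located in the GENCODE M21 annotation of the mouse genome (GRCm38, also called mm10), where all 5 of 5 were found among 21938 protein-coding genes. For each gene, the CTCF peaks of 5 deposited lists were taken whose summit, the position of highest signal within a peak, lay within 10 kb or 50 kb of an annotated transcription start site (TSS) or inside the gene body.

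The data are CTCF ChIP-seq of whole stomach from newborn mice (postnatal day 0, strain B6NCrl), with 1 group of 2 samples, biological replicates 1 and 2. In ChIP-seq, DNA bound by a protein is pulled down with an antibody and sequenced. The labels name the same donor and the same tissue sample for both replicates, so the spread between them may be technical, and the sex was not collected. With 1 group there was no contrast between conditions, and in whole tissue a peak in few cells and a weak peak in many cells cannot be told apart. The files hold no expression values, so the label of chief cell genes could not be checked against expression in these samples.

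Chief cells lie at the base of the gastric glands and store digestive enzymes in large secretory granules. Pepsinogens are inactive proteases that gastric acid turns into pepsin, gastric lipase cleaves dietary fat, and acidic chitinase degrades the chitin of ingested insects and fungi. Bhlha15, also called Mist1, is a basic helix-loop-helix factor that builds the secretory apparatus of chief cells and pancreatic acinar cells. In mice the chief cell lineage matures after birth. CTCF is a zinc finger protein that binds an asymmetric DNA motif, blocks enhancers at insulators and, with cohesin, anchors chromatin loops, most often between motifs that point toward each other.

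The 13 sequences below are from the nearest optimal peaks, a list defined below, on either side of each TSS. The strongest peak near Pgc, Pga5 and Bhlha15 is included too. All 13 are shown because they hold, or lack, the CTCF motif under the peaks on which the results turn. Each is read from the plus strand of GRCm38, 5′ to 3′, from 50 bp before to 50 bp after the summit, except that windows reaching an untranslated region were shortened around the motif. Capitals mark the best match to a 19-base motif matrix. A match reads from left to right in the plus orientation, as in CTGTCTTCAGGGGGCGCCA, and as its reverse complement in the minus orientation.
Pgc, 21955 bp upstream, chr17:47704837-47704937: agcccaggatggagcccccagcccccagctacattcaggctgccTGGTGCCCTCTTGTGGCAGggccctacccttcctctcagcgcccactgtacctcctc
Pgc, 3862 bp downstream of the TSS, chr17:47730654-47730754: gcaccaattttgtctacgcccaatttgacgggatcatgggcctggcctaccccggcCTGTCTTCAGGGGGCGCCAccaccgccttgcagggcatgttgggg
Pgc, 10172 bp downstream, chr17:47737018-47737046: gcgggTGCTGCCCTCTGCCGGGCGcagcg
Pga5, 585 bp upstream, chr19:10678606-10678706: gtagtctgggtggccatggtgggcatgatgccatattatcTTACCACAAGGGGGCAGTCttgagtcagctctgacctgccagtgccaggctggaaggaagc
Pga5, 12434 bp downstream, chr19:10665615-10665643: cacagTGGCCAGCAGGTGTCAGCActcag
Pga5, 31460 bp upstream, chr19:10709481-10709581: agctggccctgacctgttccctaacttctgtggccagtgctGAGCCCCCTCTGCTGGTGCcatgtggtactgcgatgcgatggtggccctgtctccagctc
Lipf, 34473 bp upstream, chr19:33926664-33926764: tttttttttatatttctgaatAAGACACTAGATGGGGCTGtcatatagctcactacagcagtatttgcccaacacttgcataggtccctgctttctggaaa
Lipf, 18019 bp downstream, chr19:33979156-33979256: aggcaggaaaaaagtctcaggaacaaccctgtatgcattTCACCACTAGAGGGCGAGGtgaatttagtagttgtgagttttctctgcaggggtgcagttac
Chia1, 45336 bp upstream, chr3:106067843-106067943: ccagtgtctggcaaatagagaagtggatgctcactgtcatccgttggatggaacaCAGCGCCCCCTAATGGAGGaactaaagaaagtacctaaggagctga
Chia1, 335524 bp downstream, chr3:106448703-106448803: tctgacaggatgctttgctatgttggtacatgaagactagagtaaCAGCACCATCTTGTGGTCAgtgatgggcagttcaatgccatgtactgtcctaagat
Bhlha15, 33751 bp upstream, no match, chr5:144156485-144156585: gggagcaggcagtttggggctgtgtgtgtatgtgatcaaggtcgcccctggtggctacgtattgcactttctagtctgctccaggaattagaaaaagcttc
Bhlha15, 12345 bp downstream, chr5:144202581-144202681: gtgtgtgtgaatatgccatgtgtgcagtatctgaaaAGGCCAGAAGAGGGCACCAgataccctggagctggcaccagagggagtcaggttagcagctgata
Bhlha15, 24397 bp downstream, chr5:144214633-144214733: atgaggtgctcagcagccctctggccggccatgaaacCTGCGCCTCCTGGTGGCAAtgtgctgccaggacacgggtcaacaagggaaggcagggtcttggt

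The optimal list of CTCF peaks is the larger of the authors' 2 thresholded lists. In it 2 of the 5 genes (Pgc and Pga5) had a peak within 10 kb of a TSS, against 72.3% of all protein-coding genes. These 2 encode pepsinogens, while the lipase, chitinase and Bhlha15 genes had no such peak. All 5 had one within 50 kb, against 88.0% of coding genes. Pgc alone had a peak in its gene body, 1 of 5, where 58.9% of coding genes had one. With 5 genes these counts are a description, and no test was made of them.

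Within 50 kb of a TSS lay 39 optimal peaks: 15 at Pgc, 11 at Pga5, 2 at Lipf, 1 at Chia1 and 10 at Bhlha15. The median coding gene had 5, with quartiles of 2 and 9. Pgc was thus among the most densely bound, with fewer peaks at 95.3% of coding genes, and Pga5 and Bhlha15 followed with 84.5% and 80.2%. Lipf and Chia1 lay at the other end, with fewer peaks at only 20.03% and 12.7% of coding genes. The signal of the 39 peaks, the peak caller's value as deposited, ran from 21.3 to 475 with a median of 74.9, beside a median of 76.6 over the whole list. Of the 39, 20 lay in introns, 11 between genes, 5 in noncoding exons, 2 in untranslated regions and 1 in a coding exon.

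**Figure D1:**
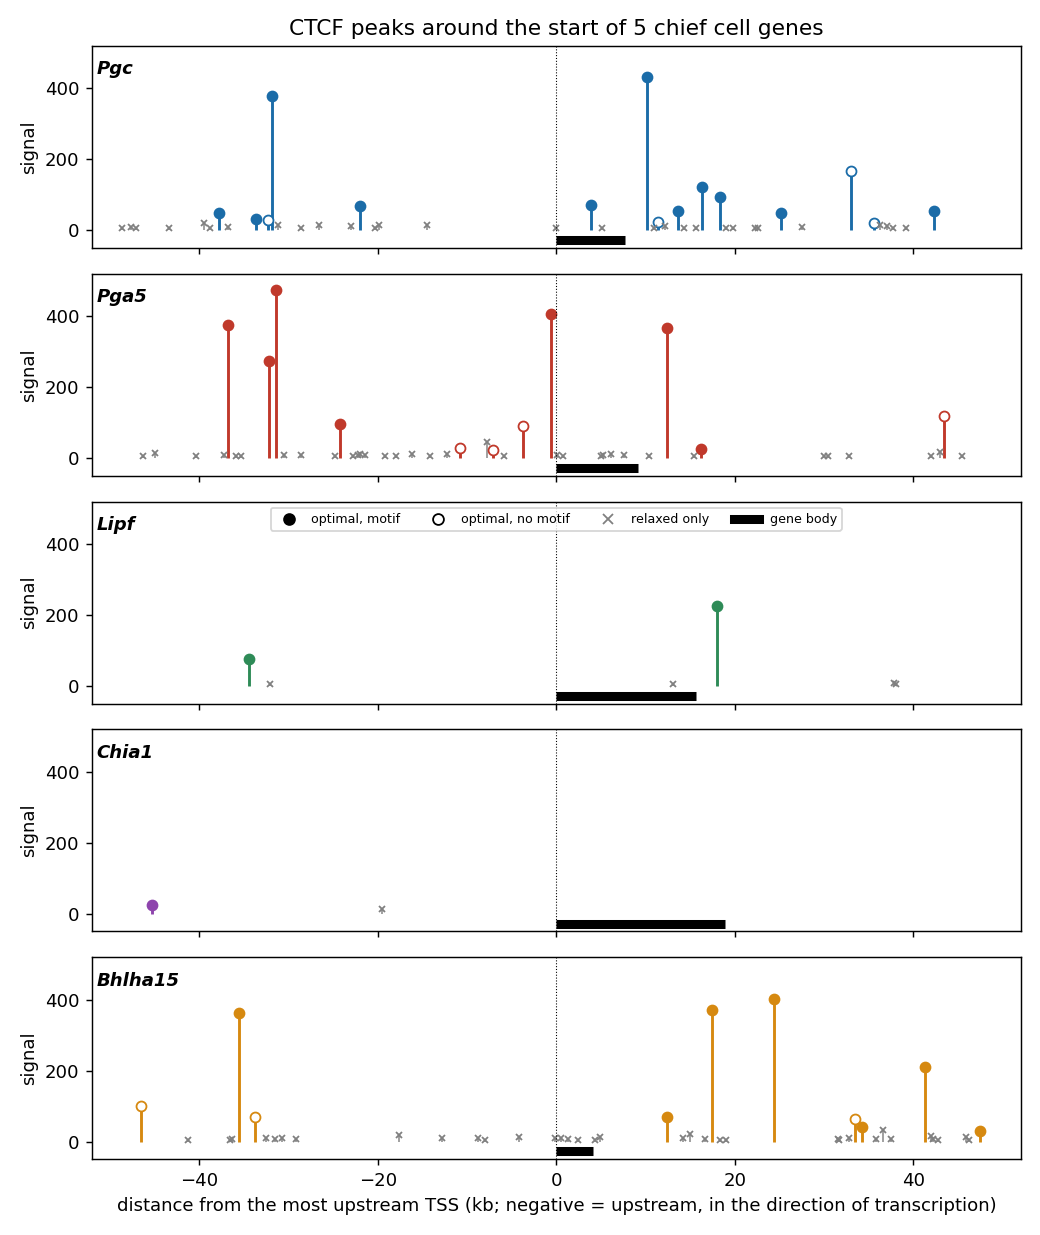
Each panel shows 1 gene. The horizontal axis is the distance of a peak summit from the most upstream TSS in kb, in the direction of transcription, and the vertical axis is the deposited signal. Filled circles are optimal peaks with a motif match, open circles optimal peaks without one, grey crosses peaks of the relaxed joint list only, and the black bar is the gene. The panels hold 15, 11, 2, 1 and 10 optimal peaks from top to bottom.

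Pgc (ENSMUSG00000023987.14, chromosome 17, 47726842 to 47734482, plus strand) encodes pepsinogen C, also called progastricsin. Its nearest optimal peak lay 3862 bp inside the gene, in a coding exon of Pgc, with a signal of 72.0 in the joint analysis, 36.9 in replicate 1 and 37.1 in replicate 2. At 52.9% of coding genes the nearest optimal peak was closer to the TSS. The Pgc peak was the one peak of the 39 in a coding exon. Its motif match, shown above as the second Pgc sequence, scored 12.4, close to the threshold of 11.9, and pointed away from the TSS.

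Upstream of Pgc the nearest optimal peak lay 21955 bp away between genes, with a signal of 67.9, 50.7 in replicate 1 and 17.8 in replicate 2. These 2 peaks left a stretch of 25.8 kb around the TSS without an optimal peak, and 46.5% of coding genes had a shorter one. The upstream match scored 23.2, the highest of the peaks printed above, although the peak itself was of middling signal. Past the 3′ end of Pgc the next peak followed after 2532 bp. It was the strongest within 50 kb, 10172 bp from the Pgc TSS and 16 bp from the TSS of Tfeb, the neighbouring gene for a regulator of lysosomal genes, with a signal of 432 (249 in replicate 1 and 185 in replicate 2). Of the other peaks of the Pgc neighbourhood, the 1 of highest signal lay in an intron of Frs3, 31819 bp upstream, with a signal of 378, and 8 more lay in introns of Tfeb.

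Pga5 (ENSMUSG00000024738.6, chromosome 19, 10668956 to 10678071, minus strand) encodes pepsinogen A5. Of the 5 genes it had the peak closest to its start. The summit lay 585 bp upstream of the TSS, between genes, with a signal of 406 (242 in replicate 1 and 164 in replicate 2), rank 5149 of 74283. Only 32.4% of coding genes had an optimal peak closer to their TSS, and the median distance over coding genes was 3077 bp. The match under this peak scored 22.4 and pointed away from the gene.

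The nearest optimal peak on the other side of the Pga5 TSS lay 12434 bp downstream, which is 3319 bp past the end of the gene, in an untranslated region of Vwce. Its signal was 368 (202 in replicate 1 and 167 in replicate 2), and its match scored 20.97 and pointed toward Pga5. Pga5 was therefore the one gene of the 5 with a peak of signal above 300 as the nearest on both sides. The stretch between them was 13.0 kb, and 28.8% of coding genes had a shorter one. Weaker peaks stood 3686 bp upstream, with a signal of 89.1 (48.6 in replicate 1 and 39.6 in replicate 2), and 7131 bp upstream, with a signal of 23.7 (17.5 and 5.87), both without a motif match. The remaining peak within 10 kb of a Pga5 TSS lay 16186 bp from the main TSS, in an intron of Vwce, with a signal of 26.7. It was counted because an annotated noncoding transcript of Pga5 starts 7098 bp inside the gene. The strongest peak of the neighbourhood, and of all 39, lay 31460 bp upstream in an intron of Vps37c, with a signal of 475 (273 and 203), rank 1398 of 74283.

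Lipf (ENSMUSG00000024768.5, chromosome 19, 33961187 to 33976810, plus strand) encodes gastric lipase. Its nearest optimal peaks lay 34473 bp upstream and 18019 bp downstream of the TSS, both between genes. The upstream peak had a signal of 74.9 (36.4 in replicate 1 and 37.9 in replicate 2), and the downstream peak had a signal of 225 (126 and 100.5). The downstream peak stood 2396 bp past the 3′ end of the gene, so the whole gene lay inside a stretch of 52.5 kb, and 66.3% of coding genes had a shorter one. Both matches were in the plus orientation, with scores of 12.4 upstream and 18.2 downstream. Within 10 kb of the Lipf TSS no peak was found in any of the 5 lists, which was so for 9.10% of coding genes.

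Chia1 (ENSMUSG00000062778.12, chromosome 3, 106113229 to 106132120, plus strand) encodes acidic chitinase. It lay in the longest peak-free stretch of the 5 genes, 380.9 kb, with a shorter one at 91.0% of coding genes. The upstream boundary, 45336 bp from the TSS, was a weak peak with a signal of 25.9 (13.5 in replicate 1 and 10.8 in replicate 2), and only 14.1% of the optimal list was weaker. The downstream boundary, 335524 bp away, was a strong one, with a signal of 372 (203 and 170). Both boundaries held a match in the minus orientation, with scores of 17.5 and 18.8.

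The Chia1 stretch also held the starts of Chil3, Chil4 and Chil6, which encode chitinase-like proteins, 4 coding genes in all with Chia1. The peak-free stretches of the other 4 genes held no other coding start. Inside the Chia1 stretch lay 26 motif matches and 7 relaxed peaks, the strongest with a signal of 17.2. That one lay 87146 bp downstream of the Chia1 TSS. Its counterpart in the replicate 2 list, 87135 bp downstream, had a signal of 12.7 and was among the 74283 strongest peaks of that list, while replicate 1 listed no summit within 100 bp. With the strongest peaks of replicate 2 in place of the optimal list the Chia1 stretch was 132 kb, and with those of replicate 1 it was 380.8 kb.

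Bhlha15 (ENSMUSG00000052271.7, chromosome 5, 144190286 to 144194441, plus strand) had no optimal peak within 10 kb but a dense neighbourhood. The nearest optimal peaks lay 33751 bp upstream, in an intron of Lmtk2, and 12345 bp downstream, in an intron of Tecpr1. Their signals were 69.6 (45.1 in replicate 1 and 23.8 in replicate 2) and 70.3 (39.1 and 29.2). The stretch between them was 46.1 kb, and 63.0% of coding genes had a shorter one. The upstream peak held no match at the threshold, its best score being 10.8, while the downstream match scored 22.2.

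Beyond these 2 boundaries of Bhlha15 stood 3 peaks of signal above 300. The strongest lay 24397 bp downstream in a noncoding exon of Tecpr1, with a signal of 401 (216 in replicate 1 and 185 in replicate 2). The others lay 17446 bp downstream, also in a noncoding exon of Tecpr1, with a signal of 370, and 35544 bp upstream in an intron of Lmtk2, with a signal of 363. One peak was in the strongest 74283 peaks of replicate 2 alone within the Bhlha15 stretch, 17661 bp upstream in an intron of Lmtk2, with a signal of 9.45 in replicate 2 and 8.79 in replicate 1. By the strongest peaks of replicate 2 the Bhlha15 stretch was 30.01 kb, and by those of replicate 1 it was 46.1 kb.

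**Figure D2:**
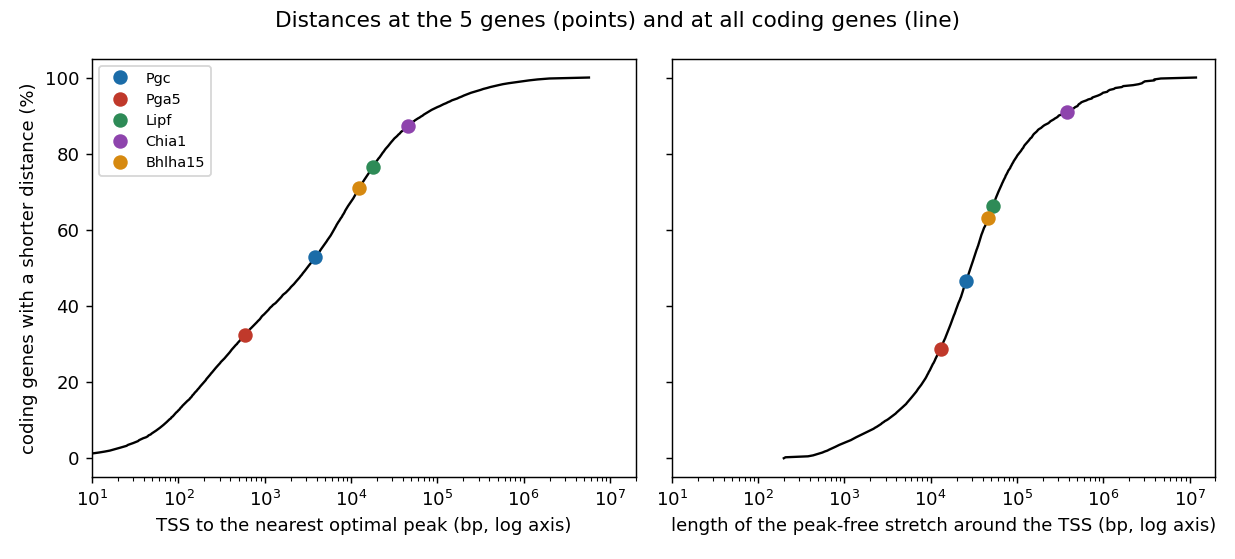
The line gives the percentage of protein-coding genes with a shorter distance, on a log axis in bp, from the TSS to the nearest optimal peak (left) and for the peak-free stretch around the TSS (right). Points are the 5 genes. Pga5 is lowest in both panels, at 32.4% and 28.8%, and Chia1 highest, at 87.2% and 91.0%.

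The order of the nearest-peak distances was Pga5 (585 bp), Pgc (3862 bp), Bhlha15 (12345 bp), Lipf (18019 bp) and Chia1 (45336 bp). Of the 39 optimal peaks, 38 had a summit of both replicate lists within 50 bp. All 39 had one within 100 bp, beside 97.1% of the optimal list. The order of distances was the same in the conservative list, the authors' stricter list.

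Replicate 1 had the higher signal at 34 of the 39 peaks and replicate 2 at 5, on a signal that is not scaled between lists. The log2 ratio of replicate 1 to replicate 2 ran from -0.78 to 1.67. The highest ratio belonged to the peak 11369 bp downstream of Pgc, with 17.2 in replicate 1 and 5.40 in replicate 2, and the lowest to the peak 47440 bp downstream of Bhlha15, with 10.6 in replicate 1 and 18.3 in replicate 2. Of the 39 peaks, 35 were also among the 74283 strongest of each replicate. The 4 exceptions lay 11369 and 35629 bp downstream of Pgc, 7131 bp upstream of Pga5 and 47440 bp downstream of Bhlha15, and all 4 had joint signals under 30. The conservative list held 36 of the 39 peaks and lacked these exceptions apart from the one 35629 bp downstream of Pgc. The counts of 35 and 36 have no share over all optimal peaks beside them, so they describe these peaks only.

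**Figure D3:**
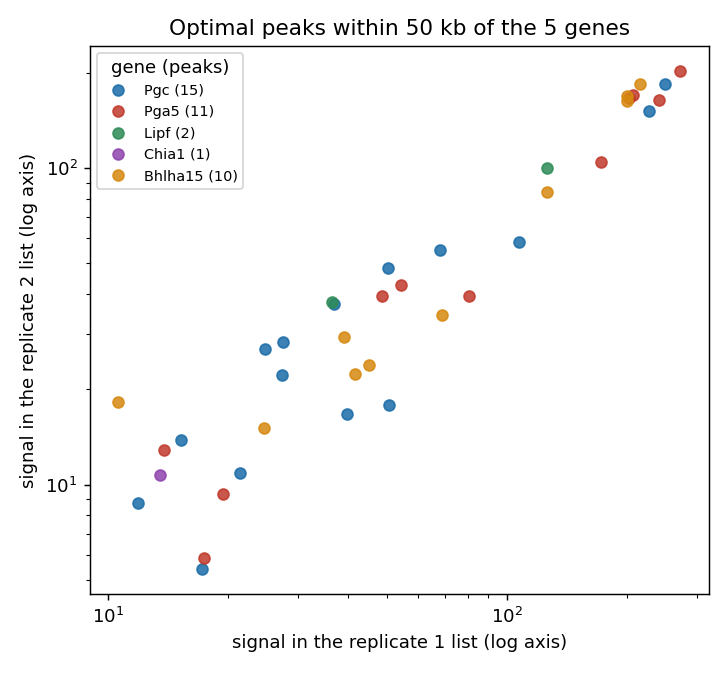
Each point is 1 of the 39 optimal peaks within 50 kb of the 5 genes, with the deposited signal in replicate 1 on the horizontal axis and in replicate 2 on the vertical axis, both log axes. Colours mark the gene. All 39 peaks appear in both lists, and the peak 47440 bp downstream of Bhlha15 is the point farthest above the trend, with 10.6 and 18.3.

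The matrix behind the motif matches had 19 positions and was derived from strong optimal peaks on chromosome 1, where none of the 5 genes lies. A peak was counted as having the motif when the best score within 50 bp of its summit, on either strand, reached a threshold that 1% of evenly spaced genome windows met. By this rule 28 of the 39 peaks had the motif, beside 68.7% of optimal peaks outside chromosome 1. All 9 peaks with a signal of at least 300 had it, and 19 of the 30 weaker ones did. All optimal peaks outside chromosome 1 were also ranked by signal and divided into 3 equal groups. The share was 88.9% in the strongest group (signal from 158.8 up), 68.3% in the middle group and 48.98% in the weakest (signal up to 44.1). These limits differ from the split at 300, so the shares are not directly comparable.

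The orientation of the bounding motifs could be read for 4 of the 5 genes, since the upstream peak of Bhlha15 had no match. At Pga5 and Lipf both motifs were in the plus orientation, and at Chia1 both were in the minus orientation. At Pgc they pointed away from each other around the TSS, the downstream one lying inside the gene. The next peak, past the 3′ end of Pgc, held a match in the minus orientation, as did the upstream peak. Of these 4 genes, only Pga5 had bounding matches above a stricter score of 18.5 on both sides. The match inside Pgc (12.4), both matches of Lipf (12.4 and 18.2) and the upstream match of Chia1 (17.5) fell below it. The orientations at Pgc, Lipf and Chia1 thus rest in part or wholly on weaker matches. At the threshold of 11.9, none of the 4 TSSs lay between nearest motifs that faced each other (0 of 4). That arrangement was found at 28.8% of the coding genes whose nearest peaks on both sides of the TSS had the motif. Neighbouring genes can share a pair of peaks, so that share is not one over independent pairs.

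Motif matches outnumbered peaks. Within 50 kb of the 5 genes lay 97 matches, of which 30 (30.9%) had an optimal summit within 50 bp, beside 18.1% of all matches on the autosomes and X. With the relaxed joint list the count rose to 44 (45.4%), beside 30.1%. These 2 wider shares include matches far from any gene. No share is given for matches within 50 kb of coding genes, so the difference cannot be read as particular to these 5 genes. Pgc had 34 matches, 12 of them with an optimal peak, and Bhlha15 had 29, 8 of them with one. Pga5 had 20, with 7 bound. Lipf and Chia1 had the fewest matches of the 5 genes, 6 and 8, of which 2 and 1 had an optimal peak. The part of the number of matches in the peak counts was not tested.

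**Figure D4:**
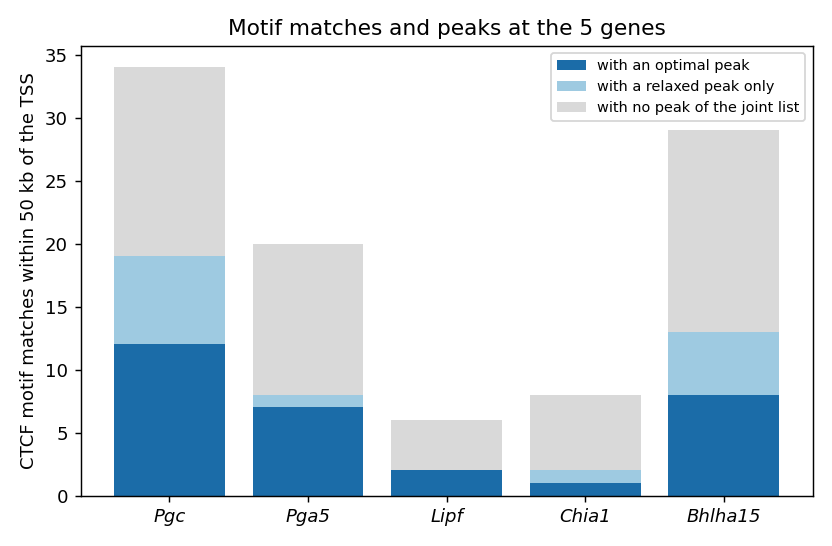
Stacked bars give the number of motif matches within 50 kb of each gene. Dark blue marks matches with an optimal summit within 50 bp, light blue those with a relaxed summit only, and grey those with no peak of the joint list. The bars reach 34, 20, 6, 8 and 29 matches.

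The matches were then divided by repeat masking. Of the 97 matches, 40 were in sequence masked as repetitive, of which 9 had an optimal peak, beside 11.2% of masked matches over the genome. The other 57 were unmasked, and 21 of them had one, beside 24.3%. Chia1 had 5 masked matches and Lipf 3, none with an optimal peak. Among the unmasked matches 2 of 3 were bound at Lipf and 1 of 3 at Chia1, against 7 of 24 at Pgc, 6 of 12 at Pga5 and 5 of 15 at Bhlha15.

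Base composition differed between the densely and the sparsely bound neighbourhoods. The GC content of the 100 kb around the TSS was 51.6% at Pgc, 49.5% at Pga5 and 49.3% at Bhlha15, and 38.3% at Lipf and 39.1% at Chia1, beside a coding median of 44.2%. Masked repeats took 22.9%, 22.4% and 28.1% of the first 3 and 48.4% and 58.7% of the last 2, beside a median of 30.5%. Of coding genes with a GC content under 40%, 31.6% had an optimal peak within 10 kb, and of those with 49% or more, 94.8% had one. Bhlha15 was thus among the few GC-rich genes with no optimal peak within 10 kb, and Lipf and Chia1 were among the majority of GC-poor ones. The part of base composition in the peak counts was not tested.

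The starts of all 5 genes lay below the coding median in CpG, and those of Pga5 and Lipf also below the lower quartile of 0.218. The observed over expected CpG ratio in the 1 kb around the TSS ran from 0.139 at Pga5 to 0.360 at Bhlha15, beside a coding median of 0.552. Of coding genes with a ratio under 0.4, a class that held all 5 genes, Bhlha15 included, 48.5% had an optimal peak within 10 kb. Promoter sequences of 300 bases from RefSeq were matched for 4 genes, Pgc, Lipf, Chia1 and Bhlha15. None of the 4 held a motif match, which 9.88% of all RefSeq promoters of that length did.

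The relaxed joint list, which keeps weak peaks before the replicates are compared, added peaks near 3 of the 5 genes. A relaxed peak with no optimal summit within 300 bp lay within 10 kb of a TSS at Pgc (2 peaks), Pga5 (10) and Bhlha15 (9), 3 of 5 genes beside 83.0% of coding genes. The 21 peaks had signals from 5.03 to 45.6, and 2 had the motif. A summit within 100 bp was listed in both replicates for 6 of them, in 1 replicate for 10 and in neither for 5. The shares of all relaxed-only peaks with the motif or in both replicates are not given, so these counts are a description.

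Weak relaxed peaks stood at the starts of 3 genes. At Pgc a peak 17 bp upstream of the TSS had a signal of 5.03 and no counterpart in either replicate. At Pga5 a peak 86 bp inside the gene had a signal of 9.38 and appeared in replicate 1 alone, and at Bhlha15 a peak 144 bp upstream had a signal of 10.3 and also appeared in replicate 1 alone (7.85). None of these start-site peaks was listed by both replicates. The −log10 of the q-value was 0.281 at Pgc, 1.74 at Pga5 and 2.16 at Bhlha15. Only 0.98% of the relaxed joint list was weaker than the Pgc peak.

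The strongest of the 21 lay 7743 bp upstream of Pga5, with a signal of 45.6 (32.5 in replicate 1 and 14.7 in replicate 2). It had no motif match, and the conservative list held it although the optimal list did not. At Pgc the strongest lay 5142 bp inside the gene, with a signal of 6.85. At Bhlha15 the strongest lay 4168 bp upstream, in an untranslated region of Lmtk2, with a signal of 13.5 (8.33 in replicate 1 and 4.25 in replicate 2). A further Bhlha15 peak, 8013 bp upstream, had a match scoring 19.7, yet its signal was 5.58 and it was listed in replicate 2 alone (2.99). The −log10 of its q-value was 0.41.

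Within 50 kb the relaxed-only peaks numbered 102, of which 34 each lay at Pga5 and Bhlha15, 29 at Pgc, 4 at Lipf and 1 at Chia1. Both replicates listed 30 of them, and 13 had the motif, again without the share over all relaxed-only peaks. At Lipf the 4 signals ran from 5.28 to 9.43, and the peak 13118 bp downstream of the TSS, in an intron of Lipf, had a signal of 5.54. The one relaxed-only peak at Chia1 lay 19538 bp upstream, with a signal of 12.9 (4.97 in replicate 1 and 6.79 in replicate 2). A single peak of replicate 2, with a signal of 2.86, was the only one of any list within 10 kb of a Chia1 TSS.

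Related genes were described from 4 lists. Among 11 other genes of chief and mucous neck cells, 9 had an optimal peak within 10 kb, the strongest at Rab26, a small GTPase of secretory granules, with a signal of 402. Cym and Gif, which encode the milk-clotting protease chymosin and gastric intrinsic factor, had none within 10 kb, and Gif lay in a stretch of 154 kb without an optimal peak. Among 6 genes of aspartic proteases akin to pepsin, 5 had a peak within 10 kb, the strongest at Ren1, the renin gene, with a signal of 494, and the lysosomal protease gene Ctsd had none.

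The share of all coding genes with a peak within 10 kb was 72.3%, as above. Of 10 other lipase genes, 4 had an optimal peak within 10 kb, the strongest at Lipa, the lysosomal acid lipase gene, with a signal of 377. The 6 without one were Lipi, Lipk, Lipn, Lipo1, Lipo2 and Lipo4. Of 8 genes of the chitinase family, 5 had a peak, the strongest at Chid1 with a signal of 443, and the 3 without one were Chil3, Chil4 and Chil6, which share the stretch of Chia1. The median distance from the TSS to the nearest optimal peak was 12345 bp over the 5 genes, 3099 bp over the other chief and neck cell genes, 4615 bp over the pepsin-like protease genes, 30395 bp over the lipase genes and 8930 bp over the chitinase family, beside 3077 bp over all coding genes. Several of these genes lie in clusters and share peaks, so they are not independent of each other or of the 5 genes.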

How the data were processed

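CTCF ChIP-seq peaks of newborn mouse stomach were analysed from 5 deposited lists in mm10 coordinates: optimal (74293 peaks), conservative (72180) and relaxed joint, replicate 1 and replicate 2 lists (300000 each). Per the labels, the optimal and conservative lists follow a comparison of replicates by IDR. For the aligner, the caller of peaks and the IDR cut-off, names and settings were not given in the sources used here. Each of the deposited lists gives a signal per peak, −log10 of a q-value (0.270 to 5.12 in the optimal list), a score (537 to 1000 in the optimal list, 0 in the relaxed lists) and the summit offset in bp. Signal was used as the authors' own value, for description and ranking inside 1 list. The lists give no read numbers, so the depth behind each peak is unknown.

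Peaks outside the 19 autosomes, X and Y were set aside, leaving 74283 optimal peaks. Distances ran from the summit to the TSSs of all transcripts in GENCODE M21, and nearest peaks from the most upstream TSS of the gene. Replicate peaks were matched within 100 bp. The motif matrix came from 993 aligned peaks of the 1000 strongest on chromosome 1, and a match needed a score of 11.9, met by 1% of 19436 evenly spaced genome windows. Sequence came from GRCm38.p6. Python 3.11.15, numpy 2.4.6, pandas 2.3.3, numba 0.67.0, pysam 0.24.0 and matplotlib 3.10.9 were used, and the counting and motif steps were tested on simulated data. The text names all 5 genes, the nearest peak on each side, the strongest peak within 50 kb and the peaks within 10 kb, and the remaining peaks were named after their values were seen. The members, the related-gene lists and the GC and CpG ranges were chosen with earlier results of these data known. Alternatives were the conservative list, peaks at or above the median signal, other matching distances, a stricter motif threshold, a wider motif window, and each replicate alone, the last for the stretches added after seeing the data.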

Additional observations from a re-analysis of the deposited data

How the results depend on the processing

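The counts of genes with an optimal peak (2 of 5 within 10 kb, 5 of 5 within 50 kb, 1 in the gene body) were the same in the conservative list and when either replicate was left out, with 41 peaks within 50 kb in the conservative list and 40 without replicate 1 or replicate 2, against 39. For the runs with 1 replicate, its 74283 strongest peaks were taken, the size of the optimal list. The similar totals were therefore partly set by that cut. Keeping optimal peaks at or above the median signal left 1 gene within 10 kb, 0 with a peak in the gene body, and 19 peaks within 50 kb. A motif threshold met by 0.1% of genome windows left 9 peaks with the motif in place of 28. Requiring a summit in both replicate lists left 6 relaxed-only peaks within 10 kb in place of 21, and 30 within 50 kb in place of 102. The peak-free stretch, recomputed from 1 replicate in a comparison added after seeing the data, fell without replicate 1 from 380.9 to 132 kb at Chia1 and from 46.1 to 30.01 kb at Bhlha15. The other stretches, and all 5 without replicate 2, moved by less than 0.1 kb. Matching replicates within 300 bp or 50 bp gave 39 and 38 peaks. No paired analysis was possible because there was 1 group. Read depth was not known, so a missing peak means only that none was listed.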

Other observations

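The conservative list held 5 peaks within 50 kb of the 5 genes with no optimal summit within 100 bp, although it is the shorter list. They lay 39437 bp upstream of Pgc (signal 19.6), 7743 bp upstream of Pga5 (45.6), and 14945, 36639 and 41989 bp downstream of Bhlha15 (20.7, 31.1 and 16.2).

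In the cluster of lipase genes near Lipf on chromosome 19, the main starts of Lipo1, Lipo2 and Lipo3 shared a stretch of 227 kb without an optimal peak, although another annotated TSS of Lipo3 had one within 10 kb. The stretches were 176 kb at Lipo4, 73.4 kb at Lipn, 43.8 kb at Lipk, 42.5 kb at Lipm and 21.3 kb at Lipa, beside 52.5 kb at Lipf and a coding median of 29.0 kb.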
